A study of Mus musculus with 61 samples.

Results

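STAT5B is a latent transcription factor that is phosphorylated by JAK kinases when a cytokine binds its receptor, forms dimers through its SH2 domain and then binds DNA. IL-2 and IL-7 signal through receptors that share the common gamma chain, and in T cells STAT5 is known for inducing the high-affinity IL-2 receptor, feedback inhibitors of the CIS and SOCS family, survival genes and effector genes. The data described here compare T cells from mice with a tyrosine-to-phenylalanine (Y665F) or a tyrosine-to-histidine (Y665H) substitution at the same residue of the SH2 domain, both exposed to IL-2 and IL-7. The question was how the gene expression of the 2 mutants differed under the same cytokines.

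The members were the RNA-seq libraries labelled Y665F_T_IL and Y665H_T_IL, 4 of each, 8 of the 61 samples of the series. They came from T cells isolated from the spleens of C57BL/6 mice at 2 months of age carrying STAT5B-Y665F or STAT5B-Y665H in the germ line and cultured for 24 h in the presence of IL-2 plus IL-7. The labels do not say whether the alleles were homozygous or how many mice stood behind a library. Libraries of WT T cells with interleukins (n = 4) and of Y665F T cells without them (n = 3) served as reference. No library of Y665H T cells without interleukins was analysed here. These reference libraries, and the Stat5a/b-null CD4 T cells and unstimulated spleens described further below, were also labelled as 2 months of age. Because these were total T cells, a difference in the share of a T-cell subset and a difference in RNA per cell cannot be told apart. Without separate-animal labels, the p-values measure the spread between these libraries.

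The substituted residue lies in exon 16 of 19 of the Stat5b transcript ENSMUST00000107358, which encodes 786 residues, at chr11:100787291-100787293 on the minus strand of GRCm38. For both alleles the study lists the same 23-base guide sequence against this codon. The sequences are shown because they carry the edited codon. In the guide, on the plus strand at chr11:100787287-100787309, the capital marks the adenine opposite the first base of the codon. In the other lines, read on the coding strand over chr11:100787261-100787323, capitals mark the codon.
Guide: tgaggtAattcaggtcccccagg
Reference: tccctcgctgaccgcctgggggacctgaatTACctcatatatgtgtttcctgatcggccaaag
Y665F donor oligo: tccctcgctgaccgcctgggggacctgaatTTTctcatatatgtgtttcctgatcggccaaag
Y665H base edit: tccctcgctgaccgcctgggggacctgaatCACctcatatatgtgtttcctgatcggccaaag

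Counting from the first printed base, the Y665F donor oligo differed from the reference at A32T and C33T, and no other of its 133 bases differed. The study's methods describe, beside the codon change, a silent C-to-G change in the Y665F donor that removes the PAM. The listed oligo does not show it, and whether the mice carry it was not analysed here. The Y665H line carries T31C, the coding-strand form of the change A7G in the guide made by an adenine base editor, and was derived from the reference and not read from the mice.

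Before any comparison, 1 of the 8 libraries had to be set aside. Y665H replicate 4 held, for each of the 24426 lines of its count table, exactly the sum of Y665H replicates 1 and 2 (3310342 and 2017012 reads on genes, together 5327354). It was therefore not counted as a replicate, which left 3 Y665H and 4 Y665F libraries. Whether Y665H replicates 1 and 2 were separate samples cannot be told from the counts, and both were kept as replicates. The remaining libraries held 2017012 to 15896125 reads on genes in Y665H and 2851451 to 21423720 in Y665F. Between 68.7% and 71.9% of the reads of Y665H libraries and between 67.6% and 84.0% of those of Y665F libraries fell on no gene or on several. Levels are given as CPM, that is, reads of a gene relative to the reads on all genes of the library, scaled between libraries by trimmed means, and values for single libraries are listed in replicate order.

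T-cell markers were high in each library (summed level 6887 to 11167 CPM in Y665F and 7929 to 10172 CPM in Y665H), and none of the 19 genes of T-cell identity and TCR signaling was called different between the mutants. Markers of other cell types were uneven. Y665F replicate 3 carried 792 CPM of B-cell markers and 1093 CPM of erythroid markers, and Y665F replicate 4 carried 233 and 96.3 CPM. In the other 5 libraries these sums were 24.8 to 52.5 CPM and 11.9 to 36.0 CPM. Summed NK-cell markers were 85.0 to 123 CPM in Y665F and 18.7 to 65.5 CPM in Y665H, without overlap (two-sided exact permutation test, p = 0.0286, the smallest that 3 against 4 libraries allow, and 0.190 after adjustment over 10 library properties). Dendritic-cell markers (56.4 to 95.7 against 20.9 to 49.6 CPM) and platelet markers (10.6 to 18.5 against 5.30 to 9.48 CPM) did not overlap either (exact permutation p = 0.0571 for each, adjusted 0.190). Monocyte and macrophage markers were lowest in Y665H replicate 1, at 23.4 CPM against 358 and 384 CPM in its fellow libraries. Y665H replicate 1 and Y665F replicate 3 thus stood apart within their groups, and counts are also given without them.

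**Figure D1:**
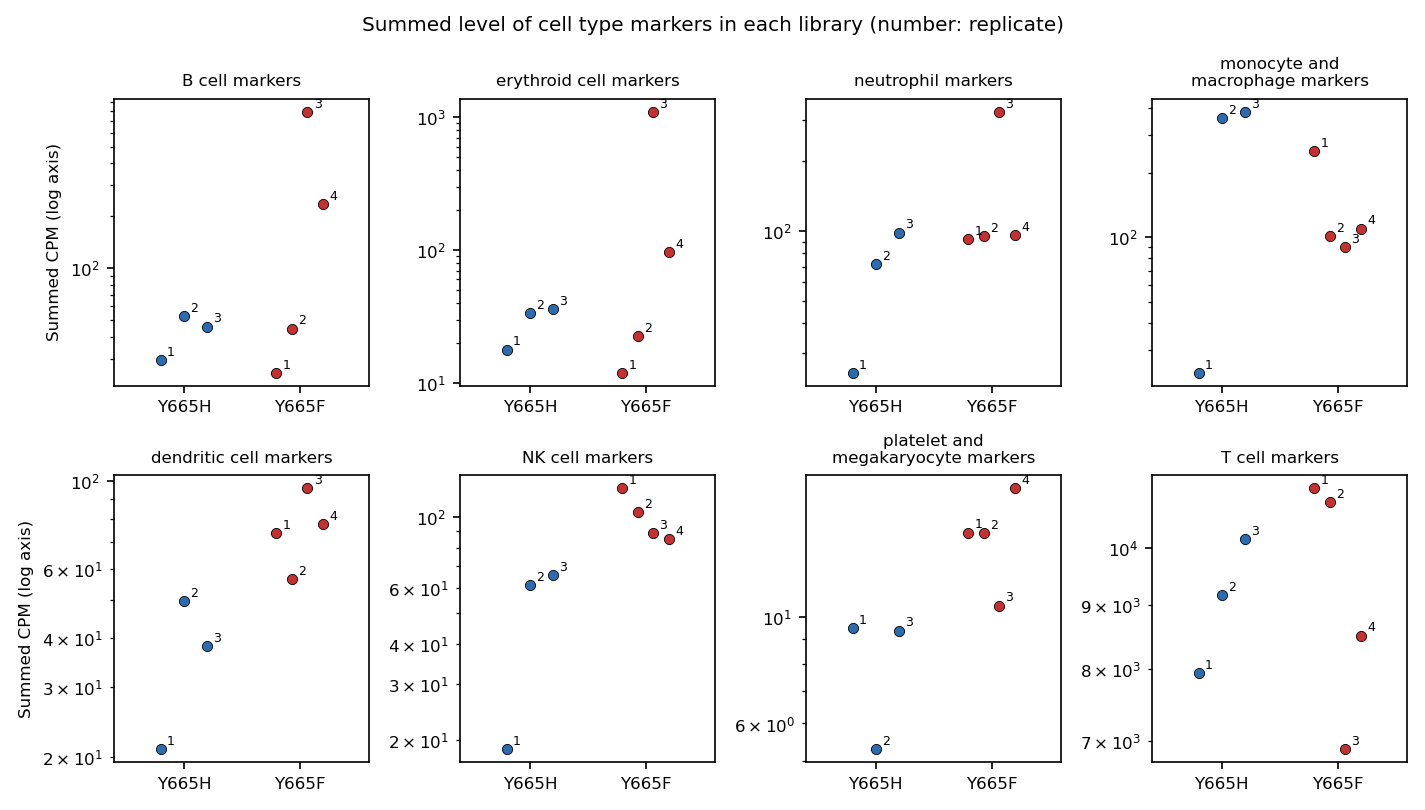
Summed level (CPM, log axis) of cell type marker lists in each of the 3 Y665H and 4 Y665F libraries, with replicate numbers beside the points. B-cell and erythroid markers were highest in Y665F replicate 3 (792 and 1093 CPM), while T-cell markers overlapped between the groups.

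The mutants differed in 557 of 22295 genes tested by edgeR's quasi-likelihood test. A gene was called, here and below, when its Benjamini-Hochberg adjusted p was under 0.05 and it was more than 1 higher or lower on the log2 scale. Of the 557 genes, 411 (1.84%) were higher and 146 (0.655%) were lower in Y665F, and the median log2 fold change of all tested genes was 0.15. Genes whose libraries did not overlap made up 394 of the higher and 138 of the lower calls, against 3148 (14.1%) of all genes tested, counting both directions. The number of calls was 276 without Y665H replicate 1, 342 without Y665H replicate 2, 301 without Y665F replicate 4, 408 without Y665H replicate 1 and Y665F replicate 3 together, and 1066 when Y665H replicate 4 was counted as a library of its own.

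**Figure D2:**
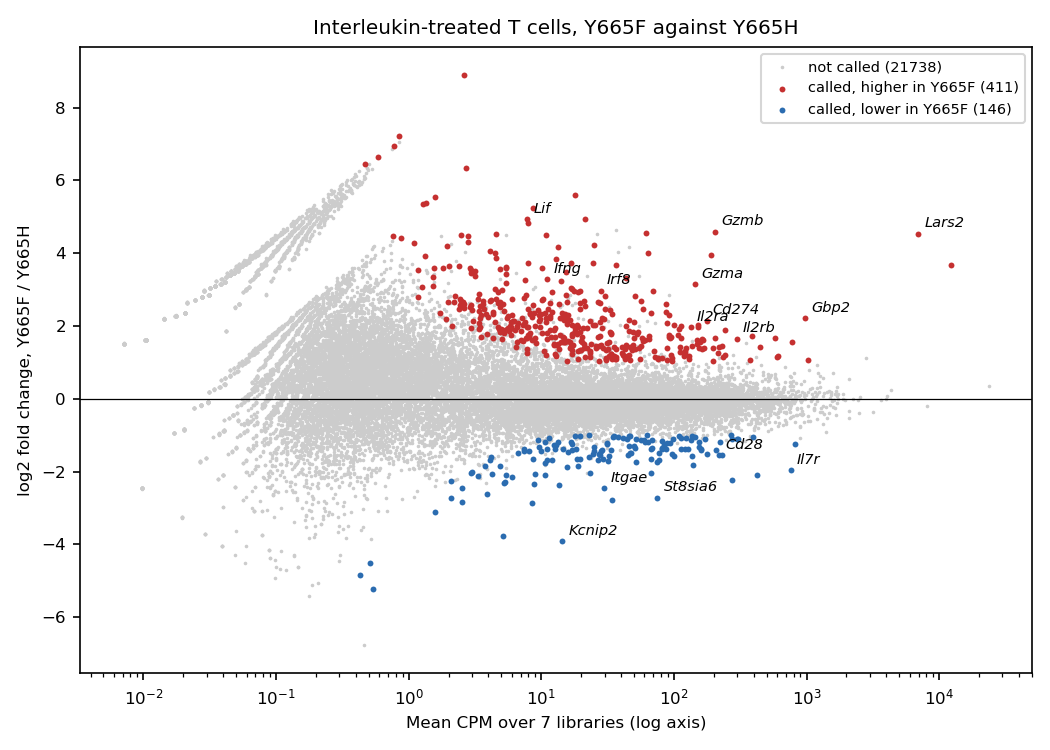
Log2 fold change of Y665F over Y665H (vertical axis) against the mean level over the 7 libraries (CPM, log axis), 1 point per gene. Red and blue points are the 411 higher and 146 lower calls, and grey points were not called.

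WT T cells under the same interleukins were compared with each mutant. Against WT, 236 genes (1.06%) were higher and 59 (0.265%) were lower in Y665F, whereas 0 (0%) were higher and 0 (0%) were lower in Y665H by the edgeR test, with 1073 genes at an unadjusted p under 0.05 and 28 called by DESeq2. The 295 calls of Y665F against WT became 5 with the percentage of reads on no gene as a covariate and 73 to 698 when 1 library at a time was left out, with 73 without Y665F replicate 4, 171 without Y665F replicate 3, 698 without Y665F replicate 1, and 536, 106, 186 and 93 without WT replicate 1, 2, 3 or 4. The median log2 fold change of the 411 genes was 1.18 for Y665F against WT and -0.75 for Y665H against WT, for genes that were chosen by the difference between the mutants. The 2 comparisons with WT share the WT libraries, as both mutant groups enter the direct comparison, so these values are set side by side without a test.

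The gene lists used here and below were chosen with earlier results of these data known, and some genes stand in several lists. Over all genes tested, 1.84% were called higher and 0.655% lower. Among 30 genes listed as STAT5 feedback inhibitors and direct targets, 12 were higher and 1 was lower in Y665F, with a median log2 fold change of 0.80. Without Y665H replicate 1 and Y665F replicate 3 the counts were again 12 and 1, but not of the same genes, as Socs2 lost its call. Leaving out 1 library at a time gave 9 to 13 higher and 1 lower. Neither Stat5b (chr11:100780731-100850724; log2 fold change -0.33 ± 0.24, adjusted p = 0.55) nor its paralog Stat5a (0.24 ± 0.26, adjusted p = 0.718) was called. Stat5b, the edited gene, was at 197, 139 and 158 CPM in Y665H and 127, 139.7, 88.4 and 167 CPM in Y665F, and these ranges overlapped.

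Cish (chr9:107296026-107302784), which encodes the feedback inhibitor CIS, was at 13.7, 3.37 and 9.85 CPM in Y665H and 38.1, 40.5, 18.5 and 53.9 CPM in Y665F. Each Y665F library lay above each Y665H library, with a log2 fold change of 2.03 ± 0.49 (SE, adjusted p = 0.0201). The call was lost without Y665F replicate 4 (log2 fold change 1.81), Y665H replicate 2 (1.71) or Y665H replicate 3 (2.08). Socs2, a further feedback inhibitor of cytokine signaling, was at 7.81, 16.9 and 28.5 CPM in Y665H and 53.6, 63.5, 34.9 and 43.3 CPM in Y665F (1.43 ± 0.36, adjusted p = 0.0283), and its call was lost without Y665H replicate 1 (1.07), Y665H replicate 2 (1.38), Y665F replicate 2 (1.28) or Y665F replicate 4 (1.48). The Socs2 call was also lost without Y665H replicate 1 and Y665F replicate 3 together, from the 2 groups alone and with the replicate block. Socs1, with 6.26 to 18.4 CPM in Y665H and 14.4 to 21.2 CPM in Y665F, was not called (0.37 ± 0.37, adjusted p = 0.688).

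Osm, encoding the cytokine oncostatin M, was at 19.5, 13.5 and 13.4 CPM in Y665H and 81.1, 70.5, 39.05 and 85.4 CPM in Y665F (2.17 ± 0.40, adjusted p = 0.00272). Bcl2l1, encoding the survival protein BCL-XL, was at 5.78 to 9.20 CPM in Y665H and rose in Y665F, at 24.4 to 28.6 CPM (1.77 ± 0.33, adjusted p = 0.00306), the single call among 18 genes of the BCL2 family. Map3k8, encoding the kinase TPL2, was at 12.8 to 27.5 CPM and 93.7 to 182 CPM (2.60 ± 0.38, adjusted p = 0.000336). Genes often counted with the STAT5 response did not pass the test here: Pim1 (0.40), Pim2 (0.54), Myc (0.38), Ccnd2 (0.42), Bcl2 (-0.04) and Mcl1 (0.02, all log2 fold changes, adjusted p of 0.453 or more).

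The subunits of the receptors for the added interleukins moved in opposite directions. Il2ra (chr2:11642807-11693193), the alpha chain that gives the IL-2 receptor its high affinity, was at 20.6, 63.6 and 66.7 CPM in Y665H and 194, 259, 152 and 180.3 CPM in Y665F (1.96 ± 0.37, adjusted p = 0.00308). Il2rb, the beta chain shared by the IL-2 and IL-15 receptors, was at 144, 134 and 123 CPM in Y665H and 545, 495, 183 and 453 CPM in Y665F (1.65 ± 0.32, adjusted p = 0.00392). Il2rg, the common gamma chain, was not called (-0.04 ± 0.23, adjusted p = 0.962). Il7r (chr15:9505788-9530176), the alpha chain of the IL-7 receptor, went the other way, with 1045, 1401 and 1514 CPM in Y665H and 462, 422, 238 and 238 CPM in Y665F (-1.96 ± 0.27, adjusted p = 0.000191). The calls of Il2ra, Il2rb and Il7r stood under each of the 19 alternative settings, 1 of which, without the fold-change minimum, cannot remove a call.

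The reference libraries place these values. Il2ra was at 89.7 to 155 CPM in WT cells with interleukins and 21.5 to 65.3 CPM in Y665F cells without them, the second range lying near that of Y665H cells with interleukins (20.6 to 66.7 CPM). Il7r was at 707 to 1008 CPM in WT and 1693 to 2897 CPM in unstimulated Y665F cells. Against WT, Il7r was called lower in Y665F (-1.33 ± 0.25, adjusted p = 0.0075), while Il2ra was not called in either mutant (0.72 ± 0.31 for Y665F, adjusted p = 0.236, and -1.24 ± 0.36 for Y665H, adjusted p = 0.586).

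Over all 28 cytokine receptor subunits tested, 10 were higher and 2 lower in Y665F (median log2 fold change 0.61). Without Y665H replicate 1 and Y665F replicate 3 the counts were 7 and 1, and the number of higher calls fell to 6 without Y665F replicate 4, to 5 without Y665H replicate 1 or Y665H replicate 3, and to 4 without Y665H replicate 2. Il12rb2, the signaling chain of the IL-12 receptor, was at 22.9, 19.8 and 17.4 CPM in Y665H and 89.1, 73.1, 107 and 139 CPM in Y665F (2.36 ± 0.35, adjusted p = 0.000438). Il1rl1, the receptor for IL-33, was at 1.45 to 3.76 CPM and 14.9 to 20.8 CPM (2.64 ± 0.46, adjusted p = 0.00169). Il15ra, the IL-15 receptor alpha chain, was also called (1.51 ± 0.33, adjusted p = 0.0113), but not without Y665H replicate 1 (1.28) or Y665H replicate 2 (1.42). Lifr was called on the strength of Y665F replicate 3 and replicate 4, the libraries rich in B-cell and erythroid markers (1.49, 2.53, 89.2 and 18.03 CPM, against 0.279 to 3.37 CPM in Y665H), and its log2 fold change of 3.72 became 1.86 without Y665F replicate 3. Its call was also lost without Y665F replicate 4 (3.89), Y665H replicate 1 (3.27), Y665H replicate 2 (3.98) or Y665H replicate 3 (4.11). Il18r1 was not called (0.66 ± 0.24, adjusted p = 0.185).

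**Figure D3:**
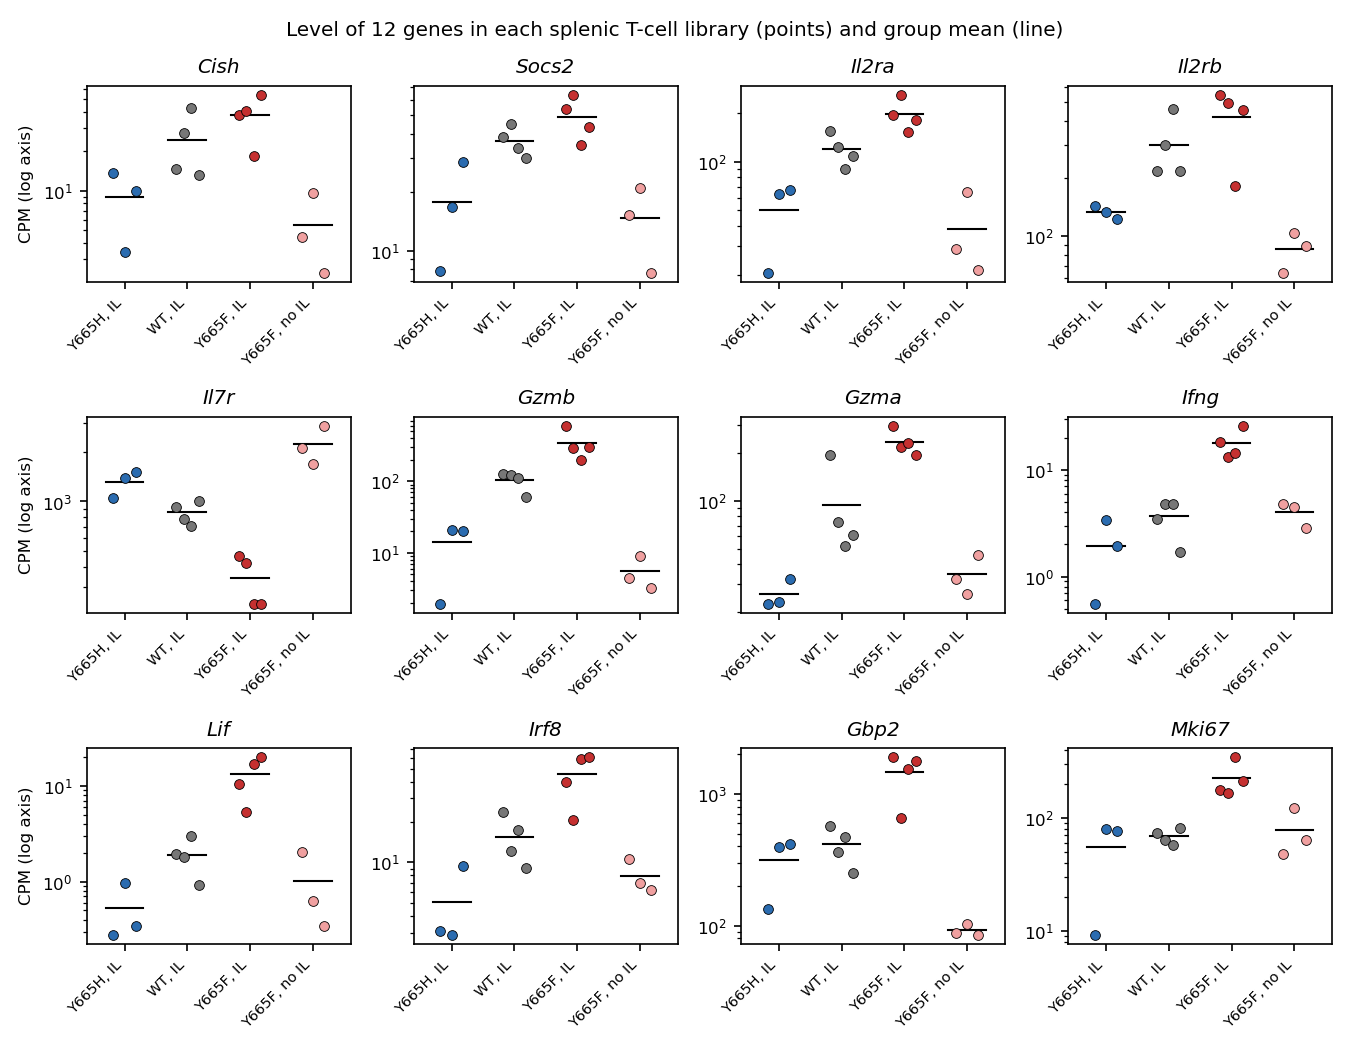
Level (CPM, log axis) of 12 genes in each library of Y665H, WT and Y665F T cells with interleukins (IL) and of Y665F T cells without them, with the group mean as a line. The Y665F libraries with interleukins lie above the Y665H libraries for each gene shown except Il7r, where they lie below.

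Of 22 cytotoxic effector genes, 7 were higher and 0 lower in Y665F (median log2 fold change 0.94), and 8 were higher without Y665H replicate 1 and Y665F replicate 3, but 3 without Y665H replicate 1 alone and 4 without Y665H replicate 2. Gzmb (chr14:56258838-56262260), encoding the protease granzyme B, was at 1.95, 20.7 and 20.3 CPM in Y665H and 597, 290.1, 202 and 307 CPM in Y665F (4.59 ± 0.53, adjusted p = 5.45e-05). Gzma, encoding granzyme A, was at 22.6, 23.1 and 32.4 CPM in Y665H and 296, 219, 230.2 and 195 CPM in Y665F (3.15 ± 0.38, adjusted p = 5.45e-05). For both genes the lowest Y665F library was above the highest Y665H library by a wide margin, and WT libraries lay at 59.97 to 127 CPM for Gzmb and 52.1 to 193 CPM for Gzma. In Y665F cells without interleukins Gzmb was at 3.25 to 9.20 CPM, under each Y665F library with interleukins. Klrc1, an NKG2 receptor of NK cells and activated CD8+ T cells, was called as well (1.80 ± 0.35, adjusted p = 0.00417). Prf1, encoding perforin (1.17 ± 0.34, adjusted p = 0.0631), and Cd8a (0.57 ± 0.24, adjusted p = 0.27) were not called. NK-cell markers were higher in the same libraries, as given above, with Klrb1c (NK1.1) at 3.07 to 11.02 CPM in Y665H and 26.1 to 33.8 CPM in Y665F, and their part in the granzyme and Klr values was not tested.

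Of 32 T-cell cytokines and chemokines, 8 were higher and 0 lower in Y665F (median log2 fold change 1.20), and again 8 were higher without Y665H replicate 1 and Y665F replicate 3, but 3 without Y665H replicate 1 alone and 5 without Y665H replicate 2 or Y665F replicate 4. Csf1 lost its call without Y665H replicate 1 and Y665F replicate 3 together, so these were not all the same 8 genes. Lif (chr11:4257557-4272514), a cytokine of the IL-6 family, was at 0.279, 0.964 and 0.342 CPM in Y665H and 10.6, 5.41, 17.03 and 20.2 CPM in Y665F (4.95 ± 0.73, adjusted p = 0.0004). Ifng, encoding interferon gamma, was at 0.558, 3.37 and 1.92 CPM in Y665H and 18.4, 13.1, 14.4 and 25.8 CPM in Y665F (3.30 ± 0.50, adjusted p = 0.000438). Both were also called against WT (2.76 ± 0.48 for Lif and 2.28 ± 0.38 for Ifng), where they were at 0.925 to 3.001 and 1.72 to 4.77 CPM. Before scaling, 3 reads amount to 0.906 and 1.49 CPM in Y665H replicates 1 and 2. Lif in these libraries, and Ifng in Y665H replicate 1, lay below this, so the size of their change rests on few reads. Tnf was not called (1.27 ± 0.37, adjusted p = 0.062), and Il2, Il4 and Il17a stayed at or below 2.04 CPM in each of the 7 libraries.

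Genes induced by interferons formed a further group. Of 36 antiviral genes 11 were higher and 0 lower in Y665F (median log2 fold change 1.06), and of 17 guanylate-binding proteins and immunity-related GTPases 8 were higher and 0 lower (median 1.16). These counts became 7 and 4 without Y665H replicate 1 and Y665F replicate 3, 6 and 2 without Y665H replicate 1 alone, 7 and 5 without Y665F replicate 4, and 8 and 5 without Y665H replicate 2. Gbp2 (chr3:142620602-142638008), a GTPase of cell-autonomous defence, was at 133, 398 and 417 CPM in Y665H and 1918, 662, 1555 and 1777 CPM in Y665F (2.23 ± 0.37, adjusted p = 0.00124). Ifit3, of the antiviral list, was at 10.04, 14.5 and 23.6 CPM in Y665H and 99.6, 30.5, 89.2 and 145 CPM in Y665F (2.46 ± 0.39, adjusted p = 0.000707). In both genes Y665H replicate 1 was the lowest library and Y665F replicate 2 the lowest of its group. Oas2 (2.66 ± 0.50), Oasl2 (2.45 ± 0.47) and Mx1 (2.35 ± 0.43) were called under each alternative setting, whereas Isg15 (1.98 ± 0.57, adjusted p = 0.0628) and Rsad2 (3.37 ± 1.04, adjusted p = 0.0891) were not called.

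Irf8, a transcription factor of the interferon regulatory family, was at 3.07, 2.89 and 9.37 CPM in Y665H and 40.00, 20.6, 59.3 and 61.3 CPM in Y665F (2.97 ± 0.45, adjusted p = 0.000464). Irf1, which drives many interferon-induced genes, was at 253, 249 and 268 CPM in Y665H and 963, 649, 539 and 1104 CPM in Y665F (1.66 ± 0.37, adjusted p = 0.0109), with the call lost without Y665H replicate 1 (1.66) or Y665H replicate 2 (1.64).

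Among 23 helper and effector transcription factors 3 were called higher and 0 lower in Y665F: Nfil3 (2.22 ± 0.39, adjusted p = 0.00188), Bhlhe40 (1.84 ± 0.34, adjusted p = 0.00308) and Tbx21, which encodes T-bet, the driver of the Th1 program (1.81 ± 0.37, adjusted p = 0.00718). Foxp3, the factor that defines regulatory T cells (0.57), and Gata3 (0.74) were not called. Of 20 genes linked to regulatory T cells, 5 were higher and 1 was lower. Without Y665H replicate 1 these numbers were 2 higher and 2 lower. Without Y665F replicate 4 they were 3 higher and 1 lower. Tnfrsf9 (4-1BB), a co-stimulatory receptor of activated T cells, was at 5.30, 19.3 and 16.5 CPM in Y665H and 125, 81.9, 44.9 and 100.1 CPM in Y665F (2.70 ± 0.42, adjusted p = 0.000601). Itgae (chr11:73090583-73147446), the CD103 integrin chain that binds E-cadherin, was the lower one, at 91.2, 35.2 and 42.4 CPM in Y665H and 10.9, 11.5, 8.22 and 10.1 CPM in Y665F (-2.45 ± 0.32, adjusted p = 0.000114). WT libraries were at 12.6 to 24.4 CPM, nearer to Y665F than to Y665H.

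Of 20 activation and checkpoint receptors, 7 were higher and 1 lower in Y665F, 2 and 1 without Y665H replicate 1 and Y665F replicate 3, 1 and 1 without Y665H replicate 1 alone, and 3 and 1 without Y665F replicate 4. Cd274, encoding PD-L1, was at 35.7, 79.97 and 64.04 CPM in Y665H and 237, 149, 266 and 403 CPM in Y665F (2.14 ± 0.33, adjusted p = 0.000578). Cd28, the co-stimulatory receptor, was lower, at 246, 367 and 439 CPM in Y665H and 151, 177, 53.7 and 93.8 CPM in Y665F (-1.56 ± 0.32, adjusted p = 0.00659). Pdcd1 (-0.27), Icos (0.02) and Havcr2 (-0.17) were not called.

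Genes of naive and quiescent T cells had a median log2 fold change of -0.75 over 22 members, with 3 lower and 0 higher, 2 lower without Y665H replicate 1 and Y665F replicate 3, and 1 to 6 lower when 1 library at a time was left out (1 without Y665H replicate 1 or Y665H replicate 3, 5 without Y665F replicate 1 and 6 without Y665F replicate 2). Actn1 fell most (-1.54 ± 0.31, adjusted p = 0.00562), though its call was lost without Y665H replicate 1 (-1.27). Klf2 (-0.88 ± 0.23, adjusted p = 0.0314), which drives the egress receptor S1pr1, passed the p threshold but not the fold-change minimum, while Tcf7 (-0.81), Ccr7 (-0.77) and Lef1 (-0.51) had adjusted p-values of 0.176 or more.

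Of 33 cell cycle and DNA replication genes, 13 were higher and 0 lower in Y665F (median log2 fold change 1.00), and 6 without Y665H replicate 1 and Y665F replicate 3. The count was 5 without Y665H replicate 1, 7 without Y665H replicate 2 or Y665F replicate 4, and 8 without Y665H replicate 3. Mki67, the proliferation marker Ki-67, was at 9.20, 79.5 and 76.4 CPM in Y665H and 177, 165, 349 and 215 CPM in Y665F (2.04 ± 0.45, adjusted p = 0.0107). Cdc6, which loads the replicative helicase, was at 2.79, 1.45 and 4.31 CPM in Y665H and 17.3, 12.99, 19.1 and 20.9 CPM in Y665F (2.47 ± 0.39, adjusted p = 0.000749). Y665H replicate 1 was low for Mki67 but not for Cdc6. Pcna (-0.17), Mcm7 (-0.06) and Ccne1 (-0.20) were not called.

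Lists of metabolism and of the JAK and STAT families held at most 1 call each, beside 1.84% higher and 0.655% lower of all genes tested. In glycolysis 1 of 15 genes was called, Hk2 (1.37 ± 0.36, adjusted p = 0.0392), and it stayed called in 1 of 7 leave-one-out comparisons, that without Y665F replicate 3 (1.48), with log2 fold changes of 1.13 to 1.71 in the others. None of 10 amino acid transporters was called. In cholesterol and fatty acid synthesis 1 of 20 was called, Scd1, a desaturase, at 0.836, 0 and 0.684 CPM in Y665H and 1.34, 2.67, 92.5 and 27.9 CPM in Y665F (5.59 ± 1.29, adjusted p = 0.0148). Scd1 was high only in Y665F replicates 3 and 4, as the B-cell and erythroid markers were, whose part in this value was not tested, and its call was lost without Y665H replicate 1 (5.73), Y665H replicate 2 (5.35) or Y665H replicate 3 (5.84). Of 11 JAK kinases and STAT factors 1 was called, Stat2 (1.16 ± 0.28, adjusted p = 0.0204), which lost its call without Y665F replicate 4 (0.88), Y665H replicate 1 (1.14), Y665H replicate 2 (1.14) or Y665H replicate 3 (1.21).

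**Figure D4:**
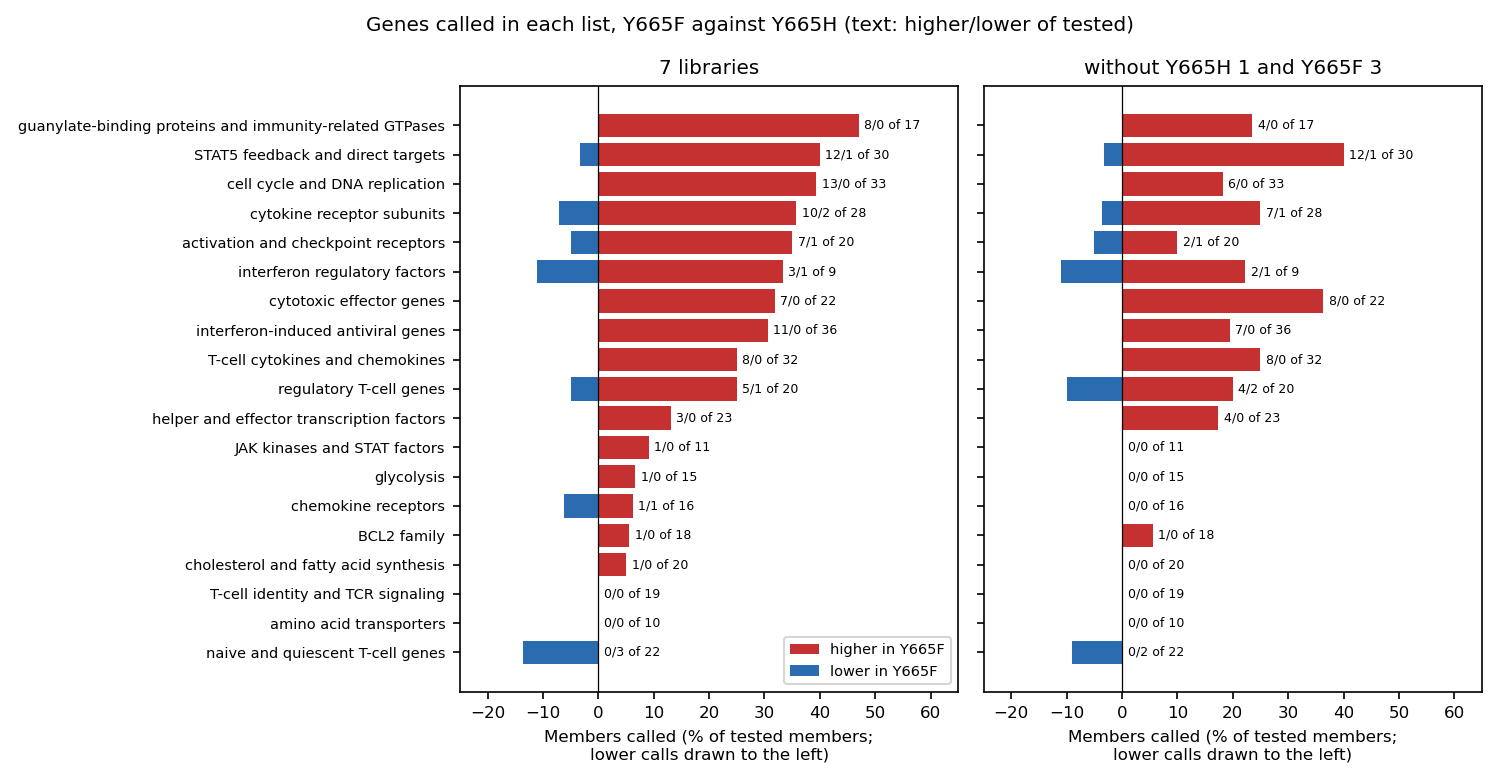
Share of each list's tested members called higher (red, to the right) or lower (blue, to the left) in Y665F, with counts beside the bars, over the 7 libraries (left) and without Y665H replicate 1 and Y665F replicate 3 (right). STAT5 targets had 12 higher calls in both panels, though not all of the same genes, while cell cycle genes went from 13 to 6. Some genes stand in several lists.

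Outside the lists, the largest non-overlapping differences among genes at 5 CPM or more on average included Fam19a3, a secreted chemokine-like protein, at 1.67, 4.34 and 6.36 CPM in Y665H and 41.9, 79.98, 131 and 169 CPM in Y665F (4.56 ± 0.57, adjusted p = 8.24e-05). Ccl22, a ligand of CCR4, was at 0.558, 3.85 and 2.60 CPM in Y665H and 48.6, 31.1, 24.4 and 64.8 CPM in Y665F (4.22 ± 0.60, adjusted p = 0.000283). Its level in Y665H replicate 1 lay below that of 3 reads (0.906 CPM before scaling). Mpzl2 (4.49 ± 0.57), 5830411N06Rik (4.18 ± 0.57), 1700029H14Rik (3.73 ± 0.64) and Gadd45g (3.62 ± 0.67) completed the higher genes together with Gzmb, Lif, Scd1 and Lars2. Lars2, encoding mitochondrial leucyl-tRNA synthetase, was at 686, 647 and 183 CPM in Y665H and 773, 22453, 2155 and 21507 CPM in Y665F (4.54 ± 1.02, adjusted p = 0.013). Its Y665F values were high in replicates 2 and 4 and in the unstimulated Y665F libraries (2865, 15072 and 6652 CPM), and the call was lost without Y665H replicate 1 (4.83), Y665H replicate 2 (4.76) or Y665H replicate 3 (4.14). The Lars2 call was also lost with the percentage of reads on no gene as a covariate.

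At the lower end, Kcnip2, a subunit of voltage-gated potassium channels, was at 56.9, 17.3 and 18.1 CPM in Y665H and 2.19, 2.82, 1.47 and 1.45 CPM in Y665F (-3.90 ± 0.43, adjusted p = 4.93e-05). St8sia6, a sialyltransferase, was at 137, 153 and 147 CPM in Y665H and 24.5, 37.5, 14.1 and 11.6 CPM in Y665F (-2.71 ± 0.32, adjusted p = 5.45e-05). Pcsk1 (-2.85 ± 0.35), Mex3b (-2.37 ± 0.37), Gprc5b (-2.33 ± 0.45) and Clec2d, the ligand of an inhibitory NK receptor (-2.23 ± 0.33), fell as well and stayed called under the 19 alternatives. Oplah (-2.27), Smpd5 (-2.14) and Ddr1 (-2.11) were highest in Y665H replicate 1 and were not called without it (-1.25, -1.26 and -1.50).

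The same 2 substitutions were also compared in other cells of the series, in libraries separate from those above. Stat5a/b-null CD4 T cells lacked both genes through Cd4-Cre, were activated in culture and received Y665F or Y665H by retrovirus under IL-2, so expression of the mutant did not depend on the Stat5b locus. Over 3 libraries each, 206 of 20113 genes (1.02%) were higher and 156 (0.776%) lower with Y665F in the fit without a replicate block, from which the null-cell values given here come. With the replicate number as a block, 267 were higher and 255 lower. Of the 411 genes higher in the splenic T cells, 408 were tested there and 38 were higher in the null cells too, 9.31% of the former list and 18.6% of the latter. Of the 146 lower genes, 145 were tested and 12 were lower in both, 8.28% and 7.74% of the lists. Opposite calls numbered 6 and 1. With the block, the calls in the same direction were 44 and 13 and the opposite calls 9 and 1.

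The genes higher in both systems included Cish (null-cell log2 fold change 2.21 ± 0.30, adjusted p = 0.000283), Socs2 (3.64 ± 0.31, adjusted p = 4.53e-06), Il2ra (2.26 ± 0.22, adjusted p = 1.03e-05), Lif (1.31 ± 0.16, adjusted p = 8.94e-05), Osm (1.49 ± 0.20, adjusted p = 0.000222) and Irf8 (2.04 ± 0.44, adjusted p = 0.00798). Enah, an actin regulator (3.59 ± 0.51 in the splenic and 2.41 ± 0.47 in the null cells), and Akr1c12, an aldo-keto reductase (3.59 ± 0.51 and 1.22 ± 0.20), were among them. Lower in both were Gm14085 (-2.10 ± 0.30 and -2.66 ± 0.45), Gprc5b (-2.33 ± 0.45 and -1.43 ± 0.33) and Cnga1 (-1.67 ± 0.26 and -1.15 ± 0.30). Gzmb (-1.11 ± 0.88, adjusted p = 0.503), Ifng (0.37 ± 0.68, adjusted p = 0.79) and Il7r (0.24 ± 0.20, adjusted p = 0.53) were not called in the null cells. With the replicate block Gzmb passed the p threshold but not the fold-change minimum (-0.70 ± 0.20, adjusted p = 0.019). Ifng and Il7r were again not called. Only with the block were Mx1 called lower (-1.68 ± 0.48, adjusted p = 0.02) and Scd1 higher (1.33 ± 0.33, adjusted p = 0.00811) in the null cells. Of the 36 antiviral genes 2 were higher and 5 lower there (median log2 fold change -0.77), or 2 higher and 8 lower with the replicate block, and of the 33 cell cycle genes 0 were called with or without it.

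**Figure D5:**
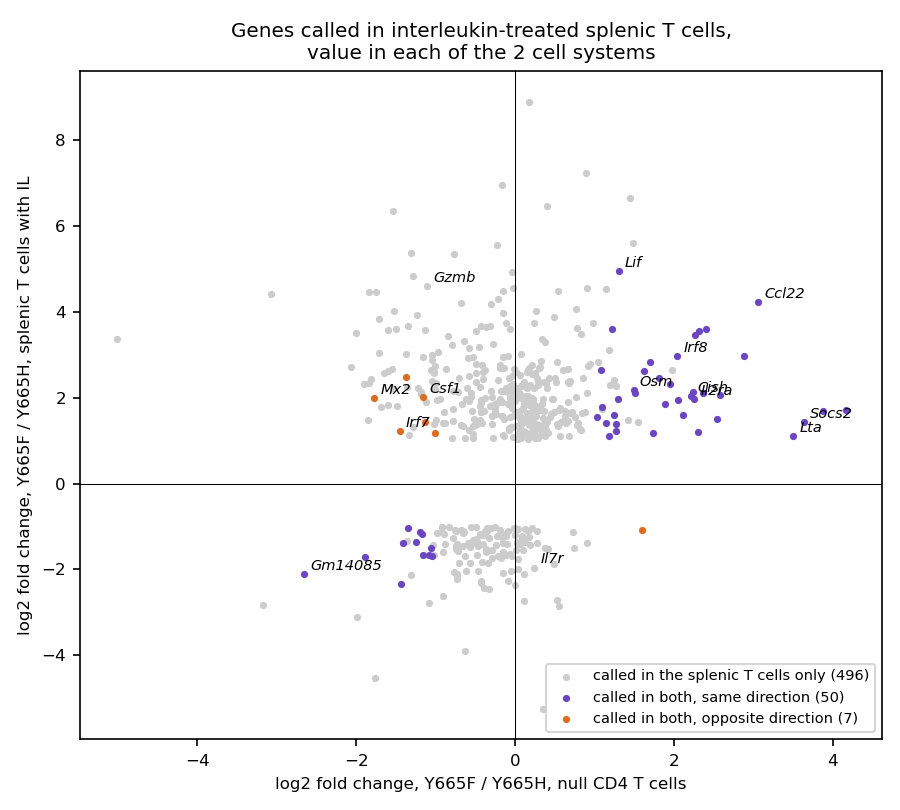
Log2 fold change of Y665F over Y665H for genes called in the splenic T cells and tested in both systems, in null CD4 T cells (horizontal axis) and in splenic T cells with interleukins (vertical axis). Purple points (50 genes) were called in the same direction in both, and orange points (7 genes) in opposite directions. The null-cell values are from the fit without a replicate block.

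In unstimulated spleens (7 Y665F and 5 Y665H libraries) 247 of 19418 genes (1.27%) were higher and 778 (4.01%) lower in Y665F. Of the 409 higher T-cell genes tested there, 23 were higher in spleen as well (5.62% of the former and 9.62% of the latter list), and 58 (14.2%) were lower. These 23 included Cish (1.49 ± 0.15), Socs2 (1.32 ± 0.10), Il2ra (1.64 ± 0.18), Il2rb (1.42 ± 0.12), Gzmb (2.47 ± 0.25) and Gzma (1.48 ± 0.33). Of the 146 lower T-cell genes, 3 were lower in spleen and 12 higher, the latter with Il7r (1.20 ± 0.11, adjusted p = 7.48e-07) and Itgae (1.17 ± 0.08, adjusted p = 2.83e-08). Cell cycle genes went the opposite way in spleen, with 19 of 33 lower and 0 higher in Y665F (median log2 fold change -1.04), as did Mki67 (-1.64 ± 0.32, adjusted p = 0.0013), and the difference between T cells and spleen was not tested. A spleen is a mixture of cell types, in which 5 of 8 erythroid markers tested were lower and 11 of 19 T-cell identity genes higher in Y665F. Cish, Il2ra, Socs2 and Thbs1 were the 4 genes called higher in all 3 comparisons, and 0 genes were called lower in all 3.

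STAT5 dimers bind the palindromic motif TTCNNNGAA, which reads the same on both strands. Promoter sequences (250 bases before to 50 after the RefSeq start, GRCm38.p6) were at hand for 16431 of the 22295 genes, and 9.36% held the motif. It was present in 37 of 288 promoters of the higher genes (12.8%) and 6 of 103 of the lower genes (5.83%), and in 5 of 31 promoters of genes higher both here and in the null CD4 cells (16.1%). These are counts of letters in a 300-base window and say nothing about binding. The promoters of 4 genes described above are shown, 3 higher and 1 lower in Y665F, with the motif in capitals, on the strand of the gene. By the GENCODE coordinates given above, the Cish and Il7r windows lie within the gene and the Gzmb window lies outside it.
Cish, chr9:107296409-107296708, plus strand: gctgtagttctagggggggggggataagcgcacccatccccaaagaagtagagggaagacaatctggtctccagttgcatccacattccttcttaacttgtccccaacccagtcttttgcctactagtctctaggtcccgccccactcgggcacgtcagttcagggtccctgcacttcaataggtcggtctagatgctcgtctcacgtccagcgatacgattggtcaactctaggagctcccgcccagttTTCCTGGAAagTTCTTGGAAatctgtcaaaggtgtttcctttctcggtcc
Gzmb, chr14:56262285-56262584, minus strand: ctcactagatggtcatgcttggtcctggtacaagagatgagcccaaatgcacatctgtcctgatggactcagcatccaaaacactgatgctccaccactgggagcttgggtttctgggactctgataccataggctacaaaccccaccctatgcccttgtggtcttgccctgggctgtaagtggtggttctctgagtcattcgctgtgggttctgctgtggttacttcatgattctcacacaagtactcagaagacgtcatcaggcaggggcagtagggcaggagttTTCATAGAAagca
Il12rb2, chr6:67376139-67376438, minus strand: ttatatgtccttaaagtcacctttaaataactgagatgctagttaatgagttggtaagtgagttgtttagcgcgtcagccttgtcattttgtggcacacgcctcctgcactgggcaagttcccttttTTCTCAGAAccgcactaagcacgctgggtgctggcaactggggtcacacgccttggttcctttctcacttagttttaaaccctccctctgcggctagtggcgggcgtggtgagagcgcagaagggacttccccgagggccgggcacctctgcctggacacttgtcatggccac
Il7r, chr15:9529827-9530126, minus strand: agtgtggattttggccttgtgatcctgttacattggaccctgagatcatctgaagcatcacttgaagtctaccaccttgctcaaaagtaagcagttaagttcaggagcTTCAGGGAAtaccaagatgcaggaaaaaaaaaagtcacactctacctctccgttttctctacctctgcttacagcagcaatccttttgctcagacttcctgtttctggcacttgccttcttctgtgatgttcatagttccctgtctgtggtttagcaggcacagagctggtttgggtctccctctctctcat
Cish held 2 copies and the other 3 promoters held 1 each.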

How the data were processed

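RNA-seq libraries of splenic T cells, null CD4 T cells and spleens were used as counts per gene, which the authors deposited after trimming (Trimmomatic 0.36), alignment to mm10 with STAR, processing with SAMtools 1.9 and Picard 2.9.2 and counting with HTSeq 0.9.1, as listed in the submitters' processing notes. Closing lines that name no gene were left out of library sizes. Genes with at least 10 reads in total were tested with the quasi-likelihood test of edgeR 4.0.16 (R 4.3.3, TMM factors, Benjamini-Hochberg adjustment), fitting the T-cell groups together. The SE was taken from the F statistic (absolute log2 fold change over √F). The design planned 4 Y665H libraries, and replicate 4 was taken out when its counts proved to be the sum of replicates 1 and 2. Scripts were tested on simulated data.

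Genes named are those the study discusses, up to 6 called members of each list, and the 10 higher and 10 lower genes with the largest non-overlapping change at 5 CPM or more; list members given as not called, and the genes compared with null CD4 cells and spleens, were picked after their values were seen. Members and lists were chosen with earlier results of these data known. Alternatives were other size factors and filters, DESeq2 1.42.0, a RUVr factor, a replicate block, a covariate and left-out libraries. In null CD4 T cells same-numbered libraries deviated together in 30 of 30 pairs (median correlation 0.459), so the numbers were taken as pairs there. The blocked fit called 522 genes against 362 without the block. The null-cell values printed are from the fit without the block unless stated, so their SE and p-values leave this pairing out. Gene coordinates are from GENCODE on GRCm38, the build of the files. Results on certain withheld genes are not reported here.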

Additional observations from a re-analysis of the deposited data

Results flagged for a closer look

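Among the 4 Y665F libraries with interleukins, 6 of 112 levels tested (5.36%, where chance gives about 1 in 20) had 1 library far from the other 3 by Dixon's criterion. In Y665F replicate 3 these were the erythroid markers (summed level 1093 CPM), the neutrophil markers (324 CPM), Pax5, a B-cell transcription factor (45.2 CPM), and Epb4.2, an erythrocyte membrane protein (57.2 CPM). Monocyte and macrophage markers were highest in Y665F replicate 1 (252 CPM), and Gadd45g was highest in Y665F replicate 4 (13.2 CPM).

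For 6 named genes the difference between Y665F and Y665H was called in the opposite direction in other cells, with groups that did not overlap, and the difference between the cell systems itself was not tested. In unstimulated spleens Il7r and Itgae were higher in Y665F (log2 fold changes of 1.20 and 1.17) and Lars2 was lower (-1.63). The Lars2 call in the splenic T cells was lost in 4 of 19 alternative settings. Mx2 is annotated as a polymorphic pseudogene, Irf7 encodes an interferon regulatory factor and Csf1 the macrophage growth factor. In null CD4 T cells these 3 genes were lower with Y665F (-1.77, -1.45 and -1.16), while in the splenic T cells they were higher (1.98, 1.21 and 2.00). These 3 calls in the splenic T cells were lost in 9 of 19 alternative settings for Mx2, 8 for Irf7 and 9 for Csf1. Mx2 was not called without Y665F replicate 3 (1.77), Y665F replicate 4 (1.64), Y665H replicate 1 (1.70), Y665H replicate 2 (2.13) or Y665H replicate 3 (2.19). Irf7 was not called without Y665F replicate 1 (1.09), Y665F replicate 4 (1.09), Y665H replicate 1 (1.10), Y665H replicate 2 (1.21) or Y665H replicate 3 (1.35). Csf1 was not called without Y665F replicate 3 (1.78), Y665F replicate 4 (1.80), Y665H replicate 1 (1.81) or Y665H replicate 3 (1.75). With the percentage of reads on no gene as a covariate, Mx2 (1.16) and Csf1 (1.32) were not called either.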

How the results depend on the processing

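The 557 genes called between Y665F and Y665H became 1011 with DESeq2, 1013 with a RUVr factor and 1066 with Y665H replicate 4 as a library of its own (chosen after seeing the data), and 276 to 673 when 1 library at a time was left out. The replicate block gave 326, but same-numbered T-cell libraries deviated together in only 5 of 19 pairs, so the numbers were not taken as pairs. Against WT, the 295 calls of Y665F became 873 with DESeq2, 194 from the 2 groups alone, 140 with the replicate block, 1225 with a RUVr factor, 5 with the percentage of reads on no gene as a covariate and 73 to 698 on leaving out 1 library. The 0 calls of Y665H against WT became 3 with RLE size factors, 28 with DESeq2, 8 without a filter, 2 with the replicate block, 19 with a RUVr factor, 5 with the covariate, 16 with Y665H replicate 4, and 0 to 19 on leaving out 1 library. In null CD4 T cells 362 became 1604 without a fold-change minimum and 230 to 454 on leaving out 1 library. In spleens 1025 became 653 with the replicate block, 5015 without the minimum and 813 to 1311 on leaving out 1 library. Il2rg turned from -0.04 to 0.025 with the replicate block, 0.18 with the covariate, and -0.17 to 0.095 on leaving out 1 library, where it was 0.095 without Y665F replicate 3, 0.011 without Y665F replicate 4, 0.0053 without Y665H replicate 2 and 0.038 without Y665H replicate 3. The cause of these changes was not tested.

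RLE size factors moved the median log2 fold change of all genes from 0.08 to 0.21 for Y665F against WT and from -0.12 to -0.01 for Y665H against WT. With 2017012 and 3310342 reads on genes, Y665H replicates 2 and 1 limit what can be seen in genes of a few CPM.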
